A study of Mus musculus with 3 samples.

Results

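The genes described here are 45 members of the BMP and TGF-beta pathways, chosen by symbol: 9 ligands, the processing protease Bmp1, 10 receptors, 8 Smads, 8 antagonists, 4 latency and matrix proteins and 5 nuclear or ubiquitin regulators. All 45 were found among 49120 gene symbols, and 37 reached a mean of at least 1 over the 3 libraries and are called measured, as 11557 genes of the whole table are. The tissue was back skin in the second telogen, the resting phase of the hair cycle, taken at an age of 7 weeks from wild type C57BL/6 animals with no other treatment named. Epidermis was lifted off with thermolysin (0.25 mg/ml, 1 h), and its cells were sorted by surface CD34 and Itga6. Non-stem cells (N) were those without CD34; of the cells with CD34, those high in Itga6 are the basal layer of the bulge, the stem cell niche of the follicle (B), and those low in Itga6 its suprabasal layer (S). Each population is represented by 1 library, made from the pooled RNA of 4 mice and preamplified, so no difference below has a replicate error. The labels give no further gate for N, so it is a mix of the epidermal cells without CD34. Levels are the deposited FPKM (fragments per kilobase of transcript, relative to all mapped fragments) divided by 1 factor per library, called scaled FPKM. FPKM accounts for transcript length but not for uneven amplification, so levels set side by side between genes are approximate.

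BMP ligands bind pairs of type I and type II receptor kinases, which phosphorylate Smad1, Smad5 and Smad9. TGF-beta and activin ligands use related receptors that phosphorylate Smad2 and Smad3, and both branches share Smad4. Secreted antagonists trap the ligands, latency proteins hold TGF-beta inactive in the matrix, and the inhibitory Smads, Smad6 and Smad7, are feedback products of the pathway. In the hair follicle, BMP signalling is known for holding bulge stem cells at rest, and BMP inhibitors and a TGF-beta ligand from the dermal papilla are known for opposing it when growth starts.

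Depth, read from the steps between low values, was 35.5 M fragments for N, 32.7 M for B and 31.3 M for S. Counting intervals below rest on these depths and on the shortest coding transcript of each gene, and they leave out amplification and the spread between mice. Of the sort genes, Cd34 followed its gate, at 0.200 (N), 144 (B) and 214 (S). Itga6 was at 114 (N), 49.0 (B) and 32.9 (S). Between B and S it had the direction of its gate but was only 1.49-fold higher in B. It was highest in N, for which no Itga6 gate is given. All 6 keratinocyte markers were measured, and they went in different directions: Krt15, a bulge keratin, was at 1008 (N), 1844 (B) and 3619 (S), Krt14, the basal keratin, at 585 (N), 275 (B) and 12.6 (S) and Krt10, the suprabasal keratin of the epidermis, at 370.0 (N), 232 (B) and 55.6 (S). Their list sum of 2849 (N), 3211 (B) and 4729 (S) follows Krt15. The 6 follicle stem cell markers, Cd34 among them, summed to 10.5 (N), 245 (B) and 364 (S). Of 8 fibroblast markers 2 were measured (Col1a2 and Vim), and the sum was 0.630 (N), 3.76 (B) and 3.69 (S). Of 8 dermal papilla markers 2 were measured, in opposite orders: Rspo3 was at 5.49 (N), 1.03 (B) and 0.0456 (S) and Hhip at 0.0579 (N), 1.03 (B) and 3.13 (S), and the list summed to 6.34 (N), 5.51 (B) and 3.83 (S). The 8 Langerhans and myeloid markers summed to 32.8 (N), 11.6 (B) and 12.7 (S), and the 6 T cell markers to 19.7 (N), 5.83 (B) and 1.61 (S), of which Thy1 gave 18.2, 4.96 and 0.669. Of 8 melanocyte markers only Mitf was measured, with a list sum of 2.40 (N), 17.6 (B) and 35.2 (S), of which Mitf gave 2.07, 16.3 and 34.2. The other melanocyte markers reached at most 0.510 in any library. Of 5 Schwann cell markers Mbp and Erbb3 were measured, with a list sum of 15.0 (N), 7.64 (B) and 8.56 (S). The 6 endothelial and the 6 smooth muscle markers had 0 measured genes and sums of at most 0.531 and 0.780 in any library. In these pooled cells, fewer cells of a type and less RNA per cell cannot be told apart.

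The promoters of 4 members are shown because these genes differed widely between the populations and in different patterns: Bmp6 and Smad9 were highest in S, Grem1 in B and Bmp4 in N. RefSeq promoter sequence (GRCm38.p6) was matched for 32 of the 45 members. Each run is the 250 bases before the RefSeq start of the gene, 5′ to 3′ on the strand of the gene. Capitals mark CAGAC, a Smad-binding motif, and GGCGCC, a GC-rich motif bound by BMP-responsive Smads, each searched on both strands; the first reads GTCTG on the other strand and the second is its own reverse complement.
Bmp6 (chr13:38345466-38345715, plus strand): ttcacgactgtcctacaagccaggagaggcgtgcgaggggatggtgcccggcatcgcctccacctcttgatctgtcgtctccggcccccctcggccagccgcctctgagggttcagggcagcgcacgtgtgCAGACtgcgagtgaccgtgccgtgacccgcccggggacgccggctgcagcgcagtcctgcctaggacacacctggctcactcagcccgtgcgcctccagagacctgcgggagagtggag
Smad9 (chr3:54755332-54755581, plus strand): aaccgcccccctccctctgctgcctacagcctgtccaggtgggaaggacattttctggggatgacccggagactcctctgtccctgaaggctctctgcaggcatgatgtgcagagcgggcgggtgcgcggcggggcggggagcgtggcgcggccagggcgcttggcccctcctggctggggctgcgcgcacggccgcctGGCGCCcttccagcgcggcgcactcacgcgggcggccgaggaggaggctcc
Grem1 (chr2:113758649-113758898, minus strand): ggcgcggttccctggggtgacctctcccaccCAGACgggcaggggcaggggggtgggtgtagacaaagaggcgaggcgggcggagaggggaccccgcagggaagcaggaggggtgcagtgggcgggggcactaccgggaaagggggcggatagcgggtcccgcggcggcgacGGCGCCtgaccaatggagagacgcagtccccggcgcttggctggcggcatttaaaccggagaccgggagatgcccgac
Bmp4 (chr14:46390670-46390919, minus strand): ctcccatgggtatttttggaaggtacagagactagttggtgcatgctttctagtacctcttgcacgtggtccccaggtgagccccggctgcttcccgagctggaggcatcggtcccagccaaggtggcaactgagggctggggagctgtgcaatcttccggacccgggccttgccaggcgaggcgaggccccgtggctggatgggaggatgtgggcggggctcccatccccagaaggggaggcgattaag
The Bmp6 window holds 1 CAGAC match, beginning 119 bases before the start. The Smad9 window holds 1 GGCGCC match at 51 bases. The Grem1 window holds 1 of each, CAGAC at 219 bases and GGCGCC at 78 bases. The Bmp4 window holds 0 of either. Of 32851 RefSeq windows of the same length, 42.2% hold CAGAC on either strand and 9.59% hold GGCGCC. The Smad9 and Grem1 windows are 73.2% and 72% G and C, against a median of 52.4% over all windows. GGCGCC is made of G and C alone, so the share over all windows is not matched to them. Windows of other members, among them Bmpr1a, Ski and Tgfbi, hold GGCGCC too.

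No test is possible with 1 library per population, so a gene is called higher or lower by size alone, where the log2 ratio of (scaled FPKM + 1) is at least 1 in size, a 2-fold rule. Counted over the 37 measured members, 6 were higher in B than in N (16.2%, against 7.25% of the 11557 measured genes) and 2 lower (5.41%, against 7.09%). The 6 were Grem1, Ltbp1, Smad9, Nog, Tgfb2 and Ltbp3, and the 2 were Bmp4 and Tgfbr3. In S against N, 7 were higher (18.9%, against 9.54% of all) and 3 lower (8.11%, against 10.9%). The 7 were Grem1, Smad9, Nog, Bmp6, Ltbp3, Bambi and Smad1, and the 3 were Bmp4, Tgfbr3 and Tgfbr2. Between the bulge layers, 3 were higher in S (Bmp6, Nog and Smad9; 8.11%, against 3.89%) and 3 higher in B (Ltbp1, Bmp4 and Grem1; 8.11%, against 5.94%). The median log2 ratio was 0.15 over the members and -0.04 over all measured genes for B against N, 0.18 over the members and 0.02 over all measured genes for S against N, and 0.08 over the members and 0.06 over all measured genes for S against B. The first pair of comparisons share the N library. With the values as deposited, the median of all genes was lower by more than 0.1, at -0.18 for B against N and -0.18 for S against N, and more genes were on the lower side: 6.19% higher and 9.46% lower in B than in N, and 7.39% and 14.5% in S than in N. The members were then 4 higher and 2 lower in B than in N, and 6 and 5 in S than in N. Several of the members counted as higher (Tgfb2, Bmp6, Nog and Bambi) had means below 2 and passed the filter through the libraries in which they were high, so the shares describe the list and are no evidence of a trend in it. The 8 members under the filter were Bmp1, Tgfb3, Inhba, Inhbb, Bmpr1b, Acvr2b, Smad6 and Chrd. The libraries keep no strand, and exon bases shared with a gene above 0 in any library made up 2.01% to 7.84% of the exon sequence of Bmp4, Bmp6, Bmpr1a, Acvr2a, Tgfbr3 and Ltbp3, and 47.3% of that of Fstl3.

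Of the measured members, 12 had their levels in the order N, B, S from low to high (32.4%, against 26.1% of measured genes), among them Bmp6, Smad1, Smad9, Nog, Bambi and Ltbp3. The reverse order held for 8 (21.6%, against 21.9%), among them Bmp2, Bmp4, Bmp7, Tgfb1, Tgfbr2 and Tgfbr3. B was highest for 8 (21.6%, against 20.5%), which were Tgfb2, Grem1, Fst, Fstl1, Tgfbi, Acvr1b, Ltbp1 and Ltbp4.

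Among the ligands, Bmp4 had the highest level in CD34-negative cells and was lower in both bulge populations, while Bmp6 had the highest level in suprabasal bulge cells. Bmp4 (ENSMUSG00000021835, chr14:46383520-46390669), a BMP ligand of the skin epithelium and dermis, was at 12.6 (N), 3.28 (B) and 0.360 (S). It was 3.85-fold (95% counting interval 3.25 to 4.55) higher in N than in B and 35.1-fold (21.9 to 60.7) higher in N than in S, and the S value rests on about 17 fragments. Bmp6 (ENSMUSG00000039004, chr13:38345716-38499728), a ligand that bulge cells are known to make, ran the other way at 0.0433 (N), 0.397 (B) and 3.75 (S), or 9.45-fold (6.94 to 13.1) higher in S than in B. The N value of Bmp6 rests on about 6 fragments. Exons of Bmp6 share 224 bases with Txndc5 on the other strand, 5.74% of the exon sequence of Bmp6. Txndc5 was at 3.23 (N), 6.24 (B) and 7.14 (S), and its part in the Bmp6 value was not tested.

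The other BMP ligands differed less. Bmp2, another ligand that restrains follicle growth, was at 3.00 (N), 2.40 (B) and 1.65 (S). Bmp7 was at 2.48 (N), 1.84 (B) and 1.04 (S). Both were highest in N and lowest in S, with log2 ratios of S against N of -0.59 and -0.77, short of the rule. In S, then, Bmp6 had the highest level of the 4 BMP ligands, and in N and B it had the lowest.

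Of the TGF-beta ligands, Tgfb1 had the same order, at 3.89 (N), 3.23 (B) and 1.74 (S). The sums of the immune marker lists above, whose cells are known to make Tgfb1, were also highest in N. Thy1, H2-Aa, H2-Ab1 and Cd74 made up most of these sums in N. The low markers went in different directions. Ptprc was at 0.559 (N), 0.124 (B) and 0.477 (S), and Cd207 at 0.125 (N), 0.219 (B) and 0.341 (S). Lyz2, Itgam and Cd2 were also highest in S, Cd3g in B, and Cd3e, Cd3d, Trdc and Csf1r in N. The part of immune cells in the Tgfb1 value was not tested. Tgfb2 (ENSMUSG00000039239, chr1:186622792-186705989) instead had its highest level in basal bulge cells, at 0.358 (N), 1.95 (B) and 0.714 (S), which was 5.43-fold (3.99 to 7.61) higher in B than in N and 2.73-fold (2.09 to 3.63) higher in B than in S. Its mean of 1.01 lay just inside the filter, and it fell outside it with the values as deposited. Tgfb3 reached at most 0.619, and the activin subunit genes Inhbb and Inhba at most 0.790 and 0.0436, so these 3 did not pass the filter. Bmp1, the protease that matures procollagen and cuts the antagonist chordin, was at 1.07 (N), 0.858 (B) and 0.990 (S), just under the filter. Of the 6 measured ligands, 1 was higher (Tgfb2) and 1 lower (Bmp4) in B than in N (all measured genes: 7.25% and 7.09%). In S against N, 1 was higher (Bmp6) and 1 lower (Bmp4) (all: 9.54% and 10.9%), and the same pair differed between S and B (all: 3.89% and 5.94%).

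**Figure D1:**
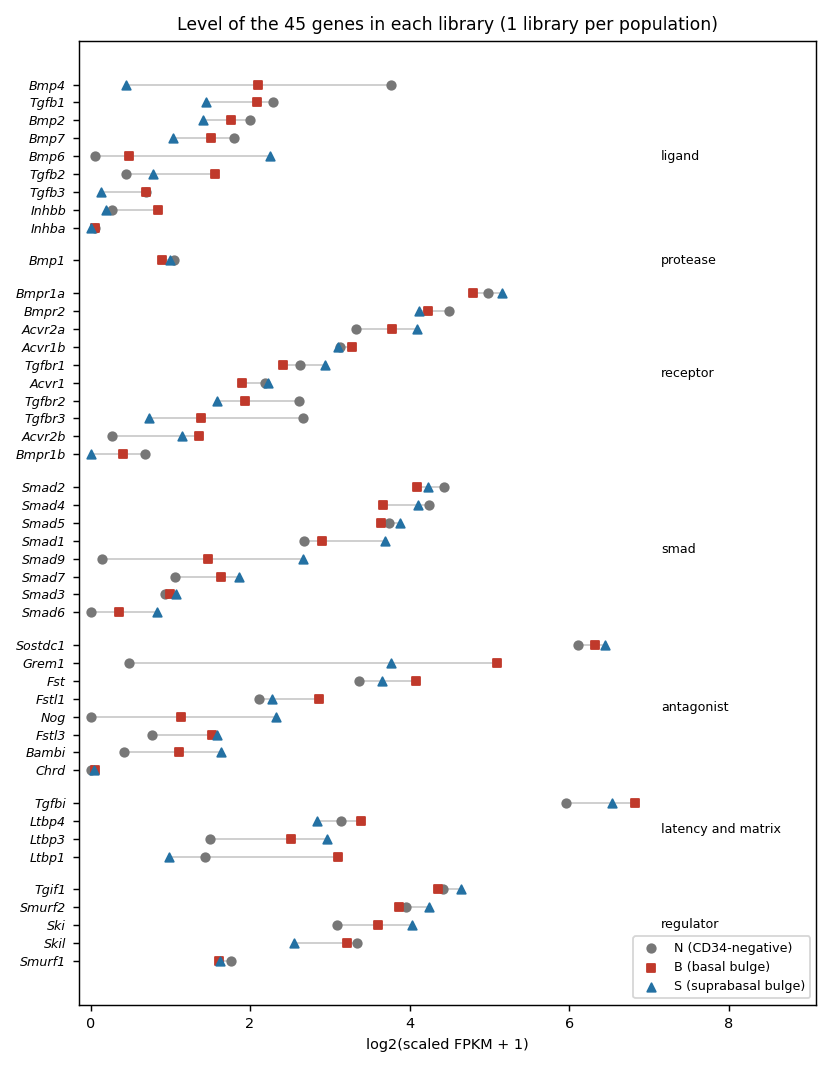
Level of each of the 45 genes in N (grey circles), B (red squares) and S (blue triangles), on an axis of log2(scaled FPKM + 1), grouped by role and sorted by mean within a role. Sostdc1 and Tgfbi have the highest levels in all 3 libraries, and Grem1, Bmp4, Bmp6, Smad9, Nog and Ltbp1 show the widest gaps between populations.

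Of the receptor genes, Tgfbr3 was lower in both bulge populations than in N and Tgfbr2 in S, and the other 6 measured did not pass the rule in any comparison. Bmpr1a, the type I BMP receptor needed for hair follicle differentiation, had the highest level of the 10, at 30.5 (N), 26.8 (B) and 34.7 (S). It stood at or above 90.4% of measured genes in N and 92.2% in S. Bmpr2, the type II BMP receptor, followed at 21.5 (N), 17.8 (B) and 16.3 (S). Bmpr1b, the type I relative of Bmpr1a, reached at most 0.602 and is listed at 0 in S. Acvr1, a type I receptor for BMPs, was at 3.54 (N), 2.72 (B) and 3.68 (S).

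The activin type II receptor gene Acvr2a was at 9.05 (N), 12.7 (B) and 16.1 (S), with a log2 ratio of S against N of 0.77, short of the rule. Its exons share 7.84% of their bases with Orc4 on the other strand, itself at 21.4, 18.1 and 21.4 in N, B and S. Acvr2b, another activin type II receptor, was at 0.202 (N), 1.57 (B) and 1.22 (S), and with a mean of 0.997 stood just outside the filter. Acvr1b, the type I activin receptor, was at 7.72 (N), 8.69 (B) and 7.57 (S) and Tgfbr1, the type I TGF-beta receptor, at 5.20 (N), 4.31 (B) and 6.69 (S).

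Tgfbr2, the receptor that binds TGF-beta first, was at 5.12 (N), 2.81 (B) and 1.99 (S), 2.58-fold (2.19 to 3.02) higher in N than in S. Tgfbr3 (ENSMUSG00000029287, chr5:107106570-107289629), the co-receptor betaglycan, which presents TGF-beta to Tgfbr2 and binds inhibin, was at 5.32 (N), 1.62 (B) and 0.655 (S). It was 3.29-fold (2.91 to 3.74) higher in N than in B and 8.13-fold (6.70 to 9.89) higher in N than in S. Of the 8 measured receptors, 1 was lower in B than in N (Tgfbr3) and 2 were lower in S than in N (Tgfbr2 and Tgfbr3), 0 were higher in either, and 0 passed the rule between S and B. Of all measured genes, 7.25% were higher and 7.09% lower in B than in N, 9.54% and 10.9% in S than in N, and 3.89% and 5.94% in S than in B. The median log2 ratio of the receptors was -0.24 for B against N and 0.01 for S against N.

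Of the Smads of the BMP branch, Smad9 passed the rule in all 3 comparisons and Smad1 only in S against N. Smad5 and the Smads of the TGF-beta branch did not pass it in any comparison. Smad9 (ENSMUSG00000027796, chr3:54755582-54801257), also called Smad8, was at 0.103 (N), 1.78 (B) and 5.35 (S), 17.4-fold (11.1 to 27.7) higher in B than in N and 3.00-fold (2.63 to 3.43) higher in S than in B. Smad1 (ENSMUSG00000031681, chr8:79338395-79399518) was at 5.41 (N), 6.47 (B) and 11.97 (S), 2.21-fold (2.01 to 2.44) higher in S than in N. Its log2 ratio of 1.02 lay at the rule and missed it with the values as deposited (0.79) and with upper-quartile scaling (0.96). Smad5, the third of the branch, was at 12.4 (N), 11.5 (B) and 13.7 (S). Smad9 thus had the largest ratios of the 3 in these libraries, and Smad5 had the highest level of them in each library.

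In the other branch, Smad2 was at 20.6 (N), 16.1 (B) and 17.7 (S) and its partner Smad3 at 0.914 (N), 0.992 (B) and 1.11 (S). Smad2 thus had by far the higher level of the pair in each library. Smad4, the shared Smad, was at 18.0 (N), 11.7 (B) and 16.3 (S). The inhibitory Smads were low and lowest in N: Smad7, which blocks both branches, was at 1.09 (N), 2.101 (B) and 2.62 (S), and Smad6, which blocks BMP receptors above all, reached at most 0.787 and is listed at 0 in N. Of the 7 measured Smads, 1 was higher in B than in N (Smad9), 2 in S than in N (Smad1 and Smad9), 1 in S than in B (Smad9), and 0 were lower in any of the 3 comparisons. The shares of all measured genes were 7.25%, 9.54% and 3.89% higher and 7.09%, 10.9% and 5.94% lower, in the same order of comparisons.

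**Figure D2:**
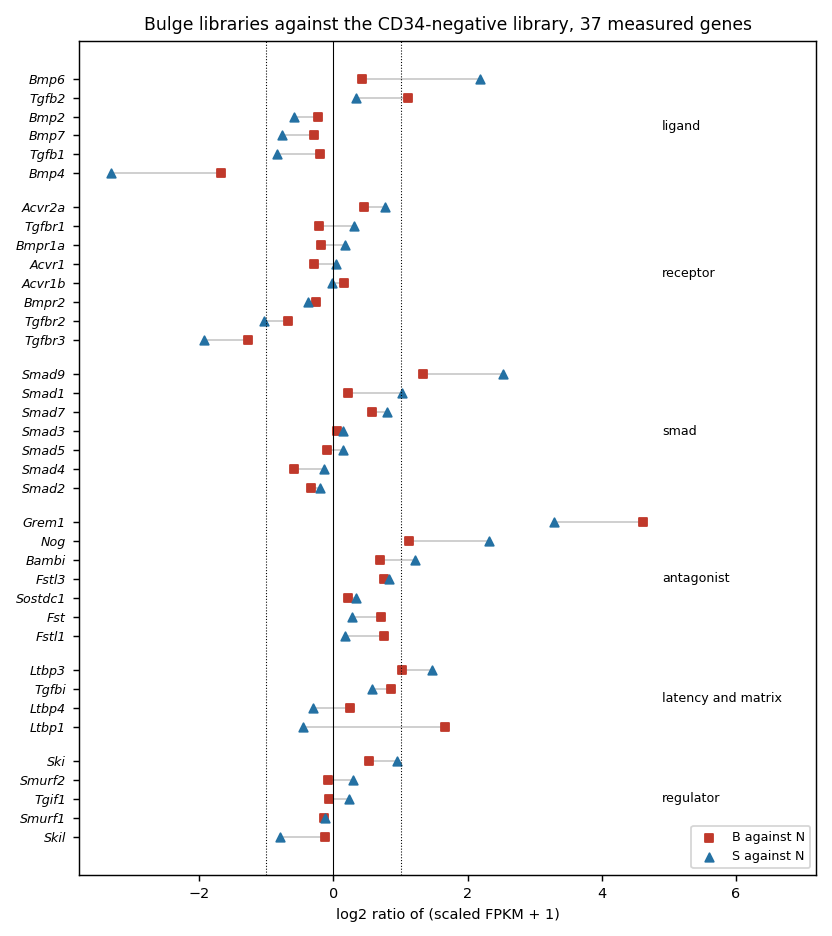
Log2 ratio of (scaled FPKM + 1) of B against N (red squares) and S against N (blue triangles) for the 37 measured members, grouped by role; dotted lines mark the 2-fold rule. Both ratios use the same N library. Grem1 lies farthest to the higher side at 4.62 for B and 3.29 for S, and Bmp4 farthest to the lower side at -1.67 and -3.32.

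Of the antagonist genes, Grem1 and Nog were higher in both bulge populations than in N, Grem1 most in basal and Nog most in suprabasal cells, and Bambi was higher in S than in N. Grem1 (ENSMUSG00000074934, chr2:113746164-113758646), a secreted trap for Bmp2, Bmp4 and Bmp7, was at 0.390 (N), 33.1 (B) and 12.6 (S). It was 84.9-fold (95% counting interval 66.1 to 110.0) higher in B than in N, 32.4-fold (25.1 to 42.1) higher in S than in N and 2.62-fold (2.47 to 2.78) higher in B than in S. Its level stood at or above 92.4% of measured genes in B, 76.7% in S and 3.94% in N. Grem1 and Nog are also known from dermal cells, so the dermal lists are given here, the lowest markers by their highest level only. Of the fibroblast list, Col1a2 was at 0.103 (N), 1.75 (B) and 1.33 (S), higher by the rule in both bulge libraries than in N, and Vim at 0.491 (N), 1.73 (B) and 1.49 (S). The other 6 markers (Col3a1 and Dpt listed at 0 in N, Pdgfrb in B and Dpt in S) reached at most 0.439 in any library. At these low levels Col1a1, Col3a1, Pdgfra and Lum had the order N, B, S from low to high, as Nog had, and Pdgfrb and Dpt did not. Of the dermal papilla list, beside Rspo3 and Hhip above, Wif1 was at 0.256 in N and 2.01 in B and is listed at 0 in S, and Crabp1 was at 0.0381 (N), 0.798 (B) and 0.209 (S); Corin, Alpl, Sox2 and Prom1 reached at most 0.517. Col1a2, Vim, Wif1, Crabp1 and Hhip were thus higher in B than in N as levels, as Grem1 and Nog were. Rspo3 went the other way, at 5.49 (N), 1.03 (B) and 0.0456 (S), and the dermal papilla list sum was highest in N. The part of dermal cells in the Grem1 and Nog values was not tested.

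Nog (ENSMUSG00000048616, chr11:89300638-89302332), which encodes noggin, a trap for Bmp2 and Bmp4, is listed at 0 in N and was at 1.18 in B and 3.99 in S, 3.37-fold (2.53 to 4.52) higher in S. No fold is given against a listed 0; Nog counts as higher than N by the rule through the added 1. Bambi (ENSMUSG00000024232, chr18:3507957-3516404), a membrane decoy receptor that lacks the kinase, was at 0.339 (N), 1.16 (B) and 2.11 (S), 6.24-fold (4.76 to 8.19) higher in S than in N. Grem1 and Nog thus had opposite orders within the bulge, and Bambi had the order of Nog.

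Sostdc1, also called wise or ectodin, a BMP antagonist that also modulates Wnt signalling, had the highest level of the antagonists in each library, at 68.3 (N), 79.3 (B) and 86.4 (S). It stood at or above 95.8% of measured genes in N and did not pass the rule in any comparison. Fst, which encodes the activin trap follistatin, was at 9.32 (N), 15.9 (B) and 11.6 (S) and its relative Fstl1 at 3.31 (N), 6.27 (B) and 3.85 (S), both highest in B. Fstl3, another activin trap, was at 0.703 (N), 1.87 (B) and 2.01 (S), but 47.3% of its exon bases are shared with Prss57 on the other strand (2.28, 3.83 and 4.51 in N, B and S), so its level is uncertain. Chordin (Chrd) reached at most 0.0393. Of the 7 measured antagonists, 2 were higher in B than in N (Grem1 and Nog), 3 in S than in N (Grem1, Nog and Bambi) and 0 were lower in either. Between S and B, Nog was higher in S and Grem1 in B. Of all measured genes, 7.25% were higher and 7.09% lower in B than in N, 9.54% and 10.9% in S than in N, and 3.89% and 5.94% in S than in B. The median log2 ratio of the antagonists was 0.75 for B against N and 0.82 for S against N. With the mean filter, Nog and Bambi were measured through their level in the bulge libraries, so these medians describe and support nothing further.

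**Figure D3:**
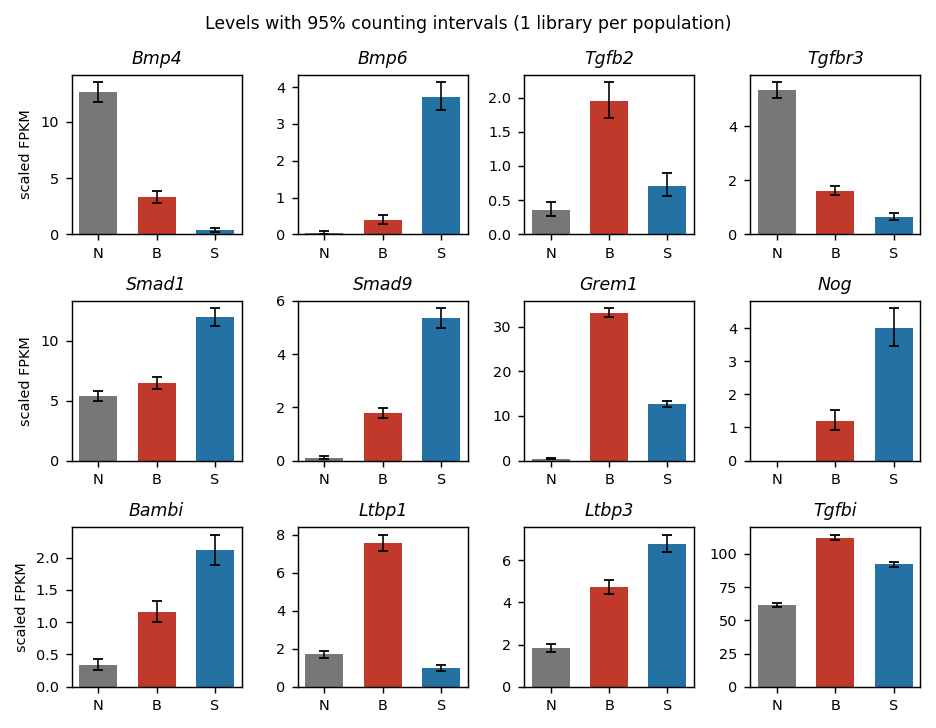
Scaled FPKM (axes from 0, a scale per panel) of 12 members in N, B and S; bars are single libraries and error bars the 95% counting interval, with none drawn for the listed 0 of Nog in N. Bmp4 and Tgfbr3 step down from N to B to S, Bmp6, Smad9, Nog, Bambi and Ltbp3 step up, and Tgfb2, Grem1 and Ltbp1 are highest in B.

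Among the latency genes, Ltbp1 was higher in basal bulge cells than in either other population, and Ltbp3 was higher in both bulge populations. Latent TGF-beta binding proteins tie the inactive ligand to the matrix. Ltbp1 (ENSMUSG00000001870, chr17:75005568-75392512) was at 1.71 (N), 7.58 (B) and 0.977 (S), 4.44-fold (95% counting interval 3.93 to 5.04) higher in B than in N and 7.75-fold (6.51 to 9.34) higher in B than in S. In S against N its log2 ratio was -0.45, below 0 but short of the rule. Ltbp3 (ENSMUSG00000024940, chr19:5740904-5758532) was at 1.83 (N), 4.73 (B) and 6.79 (S), 3.72-fold (3.30 to 4.19) higher in S than in N. Its log2 ratio of B against N, 1.02, lay at the rule and was 0.90 with the values as deposited. Ltbp4, which binds TGF-beta only weakly and helps elastic fibres form, was at 7.81 (N), 9.45 (B) and 6.14 (S). Tgfbi, a TGF-beta induced matrix protein of the integrin-binding fasciclin family, was at 61.4 (N), 112 (B) and 92.1 (S), among the highest of the 45 and highest in B.

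Of the intracellular regulators, 0 of 5 passed the rule in any of the 3 comparisons. The share of all measured genes that passed it on 1 side of a comparison was 3.89% to 10.9%. Tgif1, a homeodomain corepressor of Smad2 and Smad3, was at 20.4 (N), 19.4 (B) and 24.1 (S). Ski and Skil are related corepressors of Smads, with opposite orders of the libraries: Ski was at 7.48 (N), 11.2 (B) and 15.4 (S) and Skil at 9.12 (N), 8.26 (B) and 4.85 (S). The log2 ratios of S against N were 0.95 for Ski and -0.79 for Skil. With the values as deposited Skil passed the rule on the lower side (-1.02), as did Tgfb1 (-1.03), and with a pseudocount of 0.1 Ski passed it on the higher side (1.03). The ubiquitin ligase genes Smurf1, at 2.37 (N), 2.05 (B) and 2.09 (S), and Smurf2, at 14.5 (N), 13.6 (B) and 17.9 (S), whose products mark Smads and receptors for degradation, were within the rule in every comparison.

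Among genes known as BMP targets, Id1, Id2, Id3 and Nfatc1 were higher in both bulge populations than in N. Of 12 such genes, 10 were measured; 5 were higher and 1 lower in B than in N (all measured genes: 7.25% and 7.09%), 7 higher and 1 lower in S than in N (all: 9.54% and 10.9%), and 4 higher and 1 lower in S than in B (all: 3.89% and 5.94%). The median log2 ratio was 1.09, 1.66 and 0.44 in that order. The Id genes, which block basic helix-loop-helix factors and are direct BMP targets, had levels of 4.22 (N), 21.7 (B) and 20.7 (S) for Id1, 3.87 (N), 55.2 (B) and 117 (S) for Id2 and 22.6 (N), 77.5 (B) and 111 (S) for Id3. Id4, outside the naming rule and named after its values were seen, was at 1.40 (N), 3.64 (B) and 4.95 (S) and passed the rule in S against N but not in B against N. Nfatc1, a factor that BMP signalling maintains in resting bulge cells, was at 3.93 (N), 10.5 (B) and 27.5 (S). Gata3, a factor of the inner root sheath and epidermis, went against the list at 43.3 (N), 13.1 (B) and 8.46 (S). These genes have other regulators too, and Nfatc1 is also a marker of the bulge cells that were sorted.

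Among genes known as TGF-beta targets, Ccn2 was higher in both bulge populations than in N, and several were higher in B than in S. Of 15, 12 were measured; 3 were higher and 0 lower in B than in N (all measured genes: 7.25% and 7.09%), 3 higher and 3 lower in S than in N (all: 9.54% and 10.9%), and 2 higher and 5 lower in S than in B (all: 3.89% and 5.94%). Itgb6 is both in this list and in the latency and activation list below, and its calls count in each. The matrix protein gene Ccn2, a classical TGF-beta target, was at 2.71 (N), 146 (B) and 18.5 (S). Its relative Ccn1, which also answers to mechanical signals, was at 52.8 (N), 60.9 (B) and 7.62 (S). The transcription factor gene Snai2 was at 21.2 (N), 30.1 (B) and 10.5 (S) and Col7a1, the anchoring fibril collagen, at 9.30 (N), 11.8 (B) and 5.06 (S), both highest in B. Fn1, the fibronectin gene, instead was highest in S, at 2.30 (N), 1.89 (B) and 20.6 (S).

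Other pathway genes of latency and activation included 4 that were, like Ltbp1, higher in B than in S. Of 13 further genes of latency and activation, 6 were measured; 3 were higher in B than in N, 1 higher and 2 lower in S than in N, and 4 higher in B than in S. Thbs1, thrombospondin, an activator of latent TGF-beta, was at 10.1 (N), 14.9 (B) and 0.226 (S). Of 20 further antagonists and matrix regulators, 6 were measured, with 2 higher and 0 lower in B than in N and 1 higher and 2 lower in S than in N. Nbl1, also called Dan, a BMP antagonist related to Grem1, was at 2.06 (N), 12.8 (B) and 15.7 (S). Htra1, a secreted protease that binds TGF-beta ligands, was at 19.7 (N), 9.58 (B) and 0.689 (S). Of 26 further intracellular regulators, 20 were measured, and 2 were higher in B than in N, 2 in S than in N and 0 in S than in B. Fkbp1a, which keeps type I receptors inactive, was at 23.3 (N), 37.2 (B) and 50.7 (S), and Runx1, a Smad partner and follicle stem cell factor, at 3.79 (N), 9.90 (B) and 4.88 (S). Over all 118 other pathway genes, 60 were measured, of which 15 were higher and 3 lower in B than in N (all measured genes: 7.25% and 7.09%), 14 and 9 in S than in N (all: 9.54% and 10.9%), and 6 and 12 in S than in B (all: 3.89% and 5.94%). The same shares are the background of the shorter lists before it. These lists were drawn up with earlier results of these data known.

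**Figure D4:**
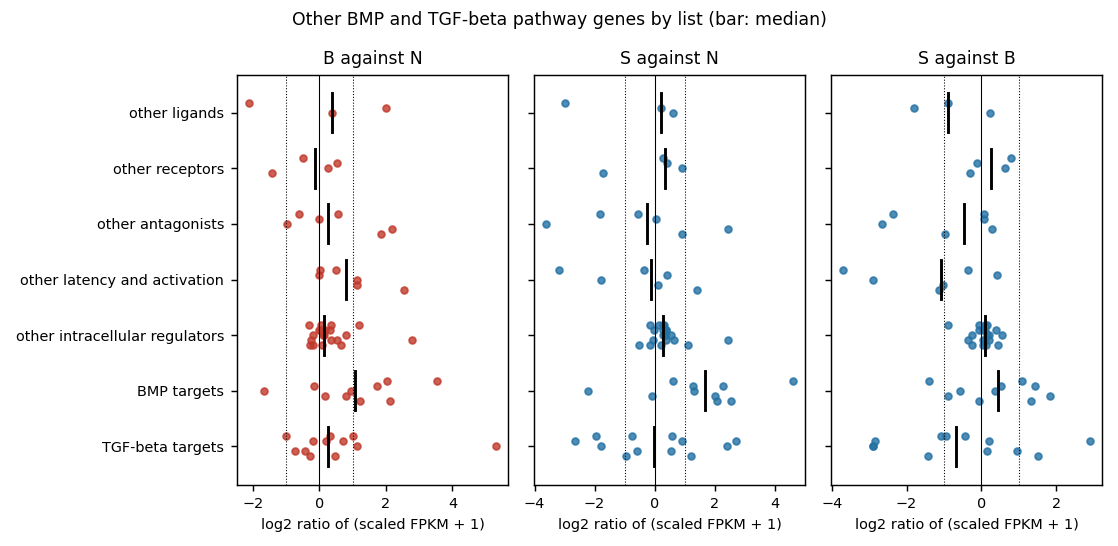
Log2 ratio of (scaled FPKM + 1) of the measured genes of 7 other pathway lists in B against N, S against N and S against B; each point is a gene, black bars are medians and dotted lines mark the 2-fold rule. The BMP target list has the highest median of the 7 in B against N (1.09) and S against N (1.66), and the latency and activation list has the lowest in S against B (-1.07).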

How the data were processed

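The 3 deposited files give FPKM values per Ensembl gene on build mm10, 49452 rows each. Per the file headers the unit is FPKM for N and S; the B column is headed by the population, and its unit was taken from the values. The submitters' processing notes name TopHat2 2.0.12, Cufflinks 2.1.1 and DESeq2 but assign no step to them; for the annotation and the filters on reads, the sources used here give nothing. Per the labels' protocols, RNA was amplified from poly(T) and random primers, made into Nextera XT libraries and read as pairs of 75 bp, a method that keeps no strand, so genes that share exon bases cannot be told apart. Symbols were found for 49195 rows and rows of 1 symbol were summed. Each library was scaled by its median ratio to the geometric mean of the 3, taken over the 18559 genes with no 0 (factors 1.11 for N, 0.987 for B and 0.929 for S). Ratios use log2(scaled FPKM + 1), which understates differences of low genes, and a mean of at least 1. Counts as higher or lower are a size rule, not a test. Depth came from the steps of single-exon genes of at least 3000 bp, where 94.7% to 97.2% of the low values (under 10 fragments) were within 0.1 of whole numbers. A 2 kb transcript at 1 FPKM rests on 62.5 to 70.9 fragments. Transcript lengths, gene names and exon overlaps came from GENCODE M21. Fold changes are of scaled FPKM with exact (Clopper-Pearson) 95% intervals. The members, lists and rules were chosen with earlier results of these data known. All members of at least 1 scaled FPKM in any library are named with their values, members below that by their highest value, and other pathway genes by a mean of at least 5 and a 2-fold difference in any comparison. The 5 alternatives were the values as deposited, upper-quartile scaling, a pseudocount of 0.1, no filter on low values and a mean of at least 5. The work used Python 3.11.15, pandas 2.3.3 and SciPy 1.17.1.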

Additional observations from a re-analysis of the deposited data

Results flagged for a closer look

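For 5 of the 37 measured members and 60 measured other pathway genes, the bulge populations stood on opposite sides of the N library, each beyond counting error, with at least 1 of the ratios past the 2-fold rule. All 5 had the order S, N, B from low to high, which 7.73% of the 11557 measured genes had at any size of ratio. The share of all genes under the same limits on size is not given, so the 5 are a description only. Ltbp1, the only member among them, had a log2 ratio of 1.66 in B and -0.45 in S. The others came from the pathway lists, which were drawn up with earlier results of these data known. Bgn had a log2 ratio of 0.55 in B and -1.81 in S. Itgb6 had a log2 ratio of 1.12 in B and -1.79 in S. Thbs1 had a log2 ratio of 0.51 in B and -3.18 in S. Ccn1 had a log2 ratio of 0.20 in B and -2.64 in S. With 1 library per population the difference was not tested.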

How the results depend on the processing

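With a mean of at least 5, 19 members were measured, and the counts were 1 higher (Grem1) and 1 lower (Bmp4) in B than in N and 2 higher and 1 lower in S than in N. In S against B, 0 were higher, and Grem1 and Bmp4 were lower. Fewer genes enter there, and the share of all genes called under that filter is not given, so these counts only describe. With a pseudocount of 0.1, 9 members were higher in B than in N (Bmp6, Fstl3 and Bambi added) and 10 in S than in N (Smad7, Fstl3 and Ski added), 5 were lower in S than in N (Bmp7 and Tgfb1 added) and 5 in S than in B (Tgfb2 and Tgfbr3 added). A smaller pseudocount widens the ratios of all genes, low ones most, so more genes outside the list pass the rule too. The share of all genes called at that pseudocount is not given. The added calls are therefore no evidence of a stronger trend in the members. With the values as deposited, 5 were lower in S than in N. The median over members of B against N was -0.013 as deposited and -0.071 with a mean of at least 5, and that of S against N was -0.027 as deposited. The median over all genes with a mean of at least 5 is not given. Of 24 single calls, 23 were kept under upper-quartile scaling, 21 as deposited (Smad1 and Ltbp3 lost, Tgfb2 not measured) and 24 with a pseudocount of 0.1, which added 10; 0 changed sign. No paired analysis was possible because each population has 1 library. Depth limits Bmp6 in N and Bmp4 in S most among the members described with folds, at about 6 and 17 fragments.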

Other observations

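Several other pathway genes fell outside the naming rule and were chosen after their values were seen. Bmp3, a ligand that opposes other BMPs, was at 7.80 (N), 1.04 (B) and 0.0980 (S), with the order of Bmp4. Gdf10, a relative of Bmp3, was listed at 0 in N and was at 3.00 in B and 0.141 in S. The BMP co-receptor gene Rgmb was at 9.14 (N), 2.81 (B) and 2.07 (S), while its relative Rgma was at 5.04 (N), 6.27 (B) and 10.3 (S). Ltbp2, a latency protein relative that does not bind TGF-beta, was at 0.516 (N), 7.79 (B) and 3.01 (S). Itgb6 and Itgb8, the beta chains of integrins that activate latent TGF-beta, had levels of 3.30 (N), 8.33 (B) and 0.243 (S) for Itgb6 and 1.84 (N), 5.17 (B) and 2.05 (S) for Itgb8, both highest in B like Ltbp1 and Tgfb2. Dab2, an endocytic adaptor of TGF-beta receptors, was at 0.261 (N), 7.73 (B) and 5.81 (S). Hey1, a Notch and BMP target, was at 0.678 (N), 0.888 (B) and 5.74 (S), and Cdkn2b, a cell cycle inhibitor induced by TGF-beta, at 0.791 (N), 0.460 (B) and 3.15 (S), both highest in S.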
